A study of Homo sapiens with 9 samples.

Results

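GNG7 and 9 relatives that encode the beta and gamma subunits of heterotrimeric G proteins were followed through 24 h of formate in the human glioblastoma cell line LN229. The members were taken by symbol from the 23727 genes of the deposited count table: 7 gamma genes (GNG2, GNG4, GNG5, GNG7, GNG10, GNG11 and GNG12) and 3 beta genes (GNB1, GNB2 and GNB4). GNG7 was chosen by its counts, which were strongly higher at 24 h than at 0 h, and the others as its family. All 10 were found, 1 row each, and 9 had enough counts to be tested; GNG10 did not. The medium of all groups held 10% serum, 17 mM glucose and 2 mM glutamine. There were 3 libraries each of untreated cells taken at 0 h, of cells given 500 µM sodium formate for 8 h, and of cells given the same dose for 24 h. Every control was taken at 0 h, so formate and time in culture cannot be told apart. Nothing in the labels says that replicates came from separate cultures, and p-values measure the spread between these libraries, which may be technical. The labels' source field spells the line LN299.

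A G protein is a trimer of an alpha subunit, which binds GTP, and a beta-gamma dimer that stays together. When a receptor activates the trimer, the alpha subunit and the dimer part and act on separate effectors, among them adenylyl cyclases, phospholipase C-beta, potassium channels and PI3-kinase. The gamma subunit carries a lipid at its carboxyl end that holds the dimer at the membrane. The gamma subunit made by GNG7 is best known from the striatum, where it works with the olfactory-type alpha subunit GNAL to drive adenylyl cyclase 5.

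Libraries held between 22222298 and 25848242 counts, and 15273 genes were tested. Replicate 1 lay apart at 0 h and at 8 h: on the axis of largest variance (70.7% of it) it scored -23.5 and -21.6. The other libraries of those groups lay between -3.41 and -0.798 and those of 24 h between 9.56 and 25.0. Replicate 1 was also the lowest of the 24 h libraries on this axis, at 9.56. The markers VIM, NES and CD44 were high in every library (at least 704 CPM), while GFAP, the classical astrocyte marker, reached only 0.425 CPM. Summed epithelial and immune markers stayed at or below 0.525 CPM. The summed level of 8 glioma and neural markers ran from 6284 to 8635 CPM at 0 h and from 5359 to 6209 CPM at 24 h. VIM, at 3199 to 6284 CPM over the 9 libraries, was the largest part of this sum. For 2 endothelial markers found (VWF, and PECAM1 at no more than 0.133 CPM) the summed level ran from 0.308 to 0.613 CPM at 0 h. At 24 h it ran from 1.04 to 1.70 CPM. For 2 neuronal markers found (SYT1 and SNAP25) it ran from 38.9 to 54.291 CPM and from 54.301 to 59.3 CPM, and for 3 fibroblast and pericyte markers from 10.9 to 15.2 CPM and from 14.5 to 19.5 CPM. Their part in the results below was not tested. In such bulk samples, fewer cells of a kind and less RNA per cell cannot be told apart.

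GNG7 (ENSG00000176533) lies on chromosome 19 at 2511219 to 2702709 on the minus strand of GRCh38, in GENCODE release 29. Its 2 annotated transcripts form 7 exon blocks of 4561 bases in all, and no other annotated gene overlaps them. The bases directly before its annotated start are shown because GNG7 is the gene that sets this family apart at 24 h. They are 235 bases from RefSeq (GRCh38.p14, chr19:2702710-2702944, minus strand, written 5′ to 3′), and the capitals mark a cyclic AMP response element and, further on, a CCAAT box that reads on the opposite strand.

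GNG7: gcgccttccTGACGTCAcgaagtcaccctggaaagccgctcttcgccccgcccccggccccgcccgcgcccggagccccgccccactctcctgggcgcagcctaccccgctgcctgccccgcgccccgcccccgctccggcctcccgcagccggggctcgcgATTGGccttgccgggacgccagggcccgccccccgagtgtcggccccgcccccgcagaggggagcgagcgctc

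The cyclic AMP response element starts 226 bases and the CCAAT box 73 bases before the GENCODE start. Of 35116 RefSeq promoters, each read on both strands over 235 bases that begin 250 bases before its RefSeq start, 1.504% held TGACGTCA and 31.1% held CCAAT. The window also held 6 GC boxes (GGGCGG, found in 40.7% of promoters), and its GC content was 80.4% against a median of 57.9%. A TATA box, spelled TATAAA, was not found (10.5% of promoters hold it), nor was the palindromic E-box, spelled CACGTG (5.87%), or a sterol response element, spelled TCACNCCAC (0.843%). Among the promoters of the other members, none held the response element or the CCAAT box, and the GC box was present in those of GNG4, GNG5, GNG10, GNG12, GNB1 and GNB4. These are matches of letters, and nothing in the counts measures binding there.

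GNG7 stood at 17.8, 32.5 and 24.3 CPM in untreated replicates 1, 2 and 3, where CPM are counts scaled to the library's total and to its TMM factor. It stood at 13.4, 27.6 and 25.1 CPM after 8 h of formate, and at 57.1, 81.3 and 107 CPM after 24 h. Every library of 24 h was above all 6 others, while 0 h and 8 h overlapped. The means were 24.9 ± 7.36, 22.03 ± 7.62 and 81.9 ± 25.1 CPM (SD, n = 3). Replicate 1 was the lowest of its group at each time, and the SD was between 29.6% and 34.6% of the mean. Set against the untreated library of the same number, the 24 h libraries were 3.21, 2.501 and 4.41 times as high.

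The 24 h value chose this gene and is given as a description with no test. The fitted log2 fold change of GNG7 was 1.72 (standard error 0.30) at 24 h against 0 h and 1.89 (0.30) at 24 h against 8 h, comparisons that share the 24 h libraries. Among all tested genes, GNG7 ranked 31st from the top at 24 h against 0 h and 26th at 24 h against 8 h. Among the genes with a mean of at least 5 CPM, it ranked 7th and 6th. Without single libraries, the value against 0 h was lowest at 1.46, leaving out replicate 3 of 24 h, and highest at 1.96, leaving out untreated replicate 2. At 8 h against 0 h, which the choice did not use, the log2 fold change was -0.18 (standard error 0.30, adjusted p = 0.9999, from edgeR's quasi-likelihood fit and Benjamini-Hochberg over all genes), with 1 of 3 same-numbered pairs higher.

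**Figure D1:**
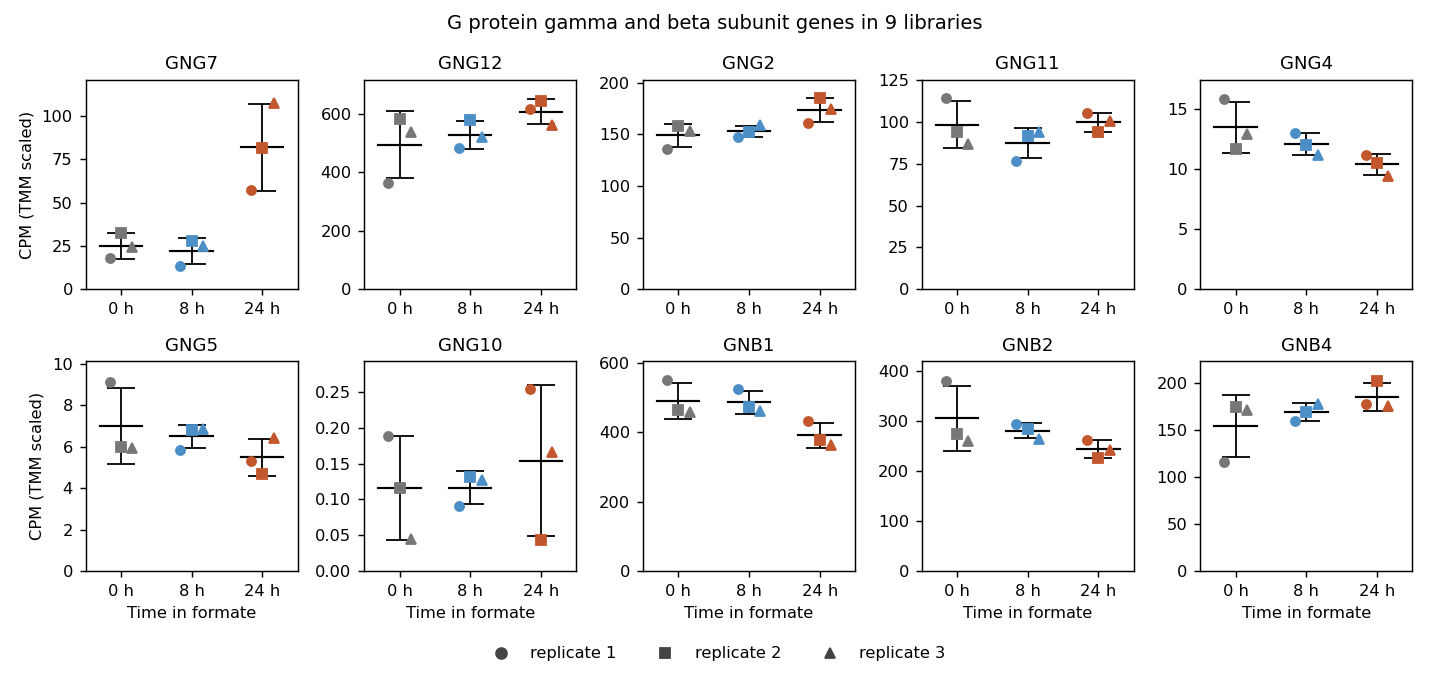
CPM (TMM scaled, linear axis from 0) of the 10 subunit genes at 0, 8 and 24 h of formate; marks are libraries by replicate number, and black lines are the mean and SD of 3. The 3 GNG7 libraries of 24 h sit between 57.1 and 107 CPM, above all libraries of 0 h and 8 h.

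Apart from GNG7, none of the 8 other tested members passed at any time by edgeR's quasi-likelihood test. At 24 h against 0 h, 4.25% of all genes passed, and the adjusted p of these 8 ran from 0.119 to 0.923; DESeq2, which called 10.9% of all genes, also called none of the 8. An unadjusted p under 0.05 was found for 4 of the 8 (GNB1, GNG4, GNB2 and GNG2), against 26.4% of all genes. Their log2 fold changes lay between -0.38 and 0.30 with a median of -0.15; the median of all tested genes was 0.01. Same-numbered libraries of 0 h and 24 h deviated together from their group means, but the pairing was not clear for every number. Replicate 2 of 24 h went more with untreated replicate 3 (r = 0.27) than with untreated replicate 2 (0.164). With the number as a block 3 of the 8 passed, all lower at 24 h: GNB1, GNB2 and GNG4. That fit called 24.1% of all genes, and 11.6% of all genes as lower.

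Among the gamma genes, GNG12 was the most abundant. Its product is widely expressed and is known as a substrate of protein kinase C. GNG12 stood at 364, 580 and 537 CPM at 0 h, 483, 579 and 521 CPM at 8 h, and 615, 644 and 562 CPM at 24 h. Untreated replicate 1 was the lowest of the 9 libraries, and the groups overlapped. The log2 fold change at 24 h against 0 h was 0.30 (standard error 0.16, adjusted p = 0.257). Leaving out untreated replicate 1 gave 0.10.

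GNG2, the gamma subunit most used in biochemical work on the dimer, was slightly higher at 24 h in each library. It stood at 136, 158 and 153 CPM at 0 h, 148, 152 and 159 CPM at 8 h, and 161, 185 and 175 CPM at 24 h. The lowest value of 24 h lay above all 6 earlier libraries. By the looser rule that only 24 h and 0 h stand apart, in one direction or the other, 30.3% of all genes did so. The log2 fold change was 0.22 (standard error 0.10), which did not pass (adjusted p = 0.179, and 0.0562 with the replicate block). Leaving out untreated replicate 1 gave 0.14. An antisense gene overlaps 7.51% of its exons, and the strand setting of the counts is not given in the sources used here.

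GNG11, whose product carries a farnesyl rather than a geranylgeranyl group, stood at 114, 94.2 and 87.0 CPM at 0 h, 76.8, 91.6 and 93.7 CPM at 8 h, and 105, 93.8 and 101 CPM at 24 h. The 3 groups had similar values, and the log2 fold change at 24 h was 0.02 (standard error 0.12, adjusted p = 0.923).

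GNG4, a gamma subunit typical of the nervous system, was expressed at a low level and lay lower at 24 h. It stood at 15.8, 11.7 and 13.0 CPM at 0 h, 13.0, 12.0 and 11.2 CPM at 8 h, and 11.2, 10.5 and 9.45 CPM at 24 h. All 3 libraries of 24 h were below all 3 untreated ones, while those of 8 h overlapped with both. The log2 fold change at 24 h against 0 h was -0.38 (standard error 0.14, adjusted p = 0.132); with the replicate block it passed at -0.37 (adjusted p = 0.0319).

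GNG5 and GNG10 encode gamma subunits found in many tissues, and their counts here are uncertain. GNG5 ran from 4.70 to 9.15 CPM over the 9 libraries, with its highest value in untreated replicate 1, and its log2 fold change at 24 h was -0.35 (standard error 0.20, adjusted p = 0.276). Leaving out untreated replicate 1 gave -0.13, and leaving out replicate 1 of every group -0.093. GENCODE holds 4 pseudogene copies of GNG5, and other genes overlap 30.9% of its exons on the same strand and 10.7% on the opposite one. GNG10 had 1 to 6 counts per library, at most 0.254 CPM, against 0.116 to 0.141 CPM for 3 counts. The readthrough gene DNAJC25-GNG10 overlaps 73.1% of the exons of GNG10 on the same strand, and 1 pseudogene copy is annotated.

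GNB1 encodes the beta subunit found in most tissues. It stood at 549, 462 and 459 CPM at 0 h, 524, 472 and 461 CPM at 8 h, and 431, 378 and 363 CPM at 24 h. The 3 libraries of 24 h lay below all 6 earlier ones, and in each numbered pair the 24 h library held 0.786, 0.818 and 0.790 times its untreated partner. Its log2 fold change was -0.33 (standard error 0.12, adjusted p = 0.119). With the replicate block GNB1 passed at -0.33 (0.07, adjusted p = 0.0102). Without replicate 1 of every group, a setting added after the data were seen, GNB1 also passed (log2 fold change -0.31, adjusted p = 0.0160); that fit called 16.9% of all genes.

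GNB2, a second widespread beta subunit, stood at 380, 274 and 260 CPM at 0 h, 293, 284 and 264 CPM at 8 h, and 262, 226 and 243 CPM at 24 h. Untreated replicate 1 was the highest, and the lowest untreated library overlapped with 24 h. The log2 fold change was -0.32 (standard error 0.14, adjusted p = 0.175). With the replicate block GNB2 passed at -0.31 (adjusted p = 0.0444). Without untreated replicate 1 it was -0.15.

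GNB4, a beta subunit with a less uniform tissue pattern, stood at 116, 175 and 171 CPM at 0 h, 159, 169 and 178 CPM at 8 h, and 177, 202 and 176 CPM at 24 h. Its 3 libraries of 24 h were just above the 3 of 0 h and overlapped with 8 h. The log2 fold change was 0.26 (standard error 0.15, adjusted p = 0.262). Leaving out untreated replicate 1 gave 0.08. An antisense gene overlaps 27.6% of its exons.

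At 8 h against 0 h none of the 9 tested members passed, and 0% of all genes did. None of the 9 had an unadjusted p under 0.05 (0.517% of all genes had), and DESeq2 called none. The log2 fold changes lay between -0.18 for GNG7 and 0.13 for GNB4, and in none did the replicates of both groups stand apart (3.31% of all genes). Of the 9, 7 changed sign when some library was left out.

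At 24 h against 8 h, which asks whether the effects at both times differ, 4.56% of all genes passed. None of the 8 members other than GNG7 passed by edgeR's quasi-likelihood test or by DESeq2 (10.2% of all genes), and 1, GNB1, had an unadjusted p under 0.05 (22.8% of all genes). GNB1 had a log2 fold change of -0.31 (standard error 0.12, adjusted p = 0.140). Replicates stood apart for GNG2, GNG11, GNB1 and GNB2, as for 34.3% of all genes. Without untreated replicate 1, whose group is not compared here but shares the estimate of the spread, GNB1 passed at -0.33 (adjusted p = 0.0375). The share of all genes that passed in that fit is not given here. Without replicate 1 of every group GNB1 also passed (adjusted p = 0.0111), where 19.9% of all genes passed. With the replicate number as a block GNB1 passed too (adjusted p = 0.0128), in a fit that called 20.5% of all genes, although the numbers did not pair these groups throughout.

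**Figure D2:**
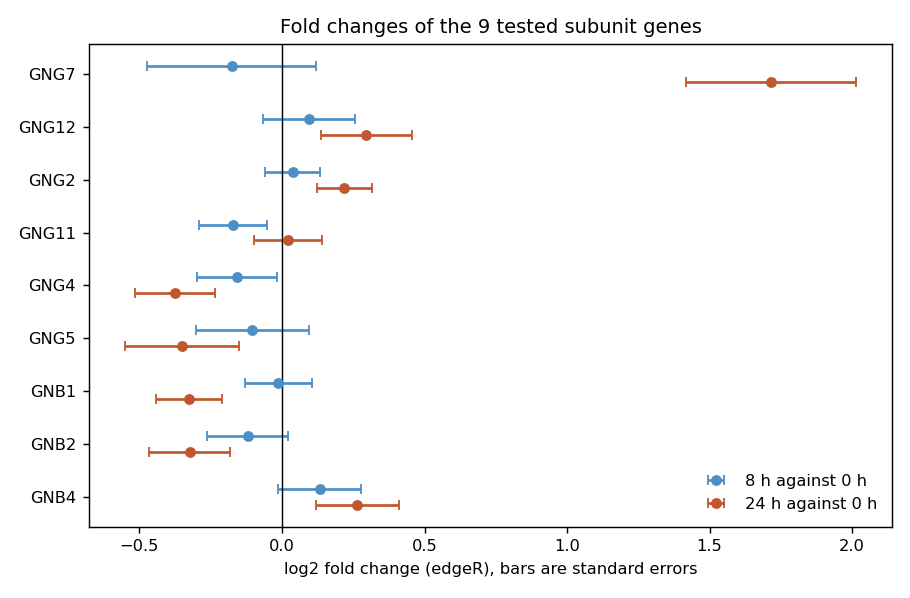
Log2 fold changes of the 9 tested subunit genes at 8 h and at 24 h, both against the same untreated libraries, with standard errors. GNG7 at 24 h stands at 1.72, and the other 8 genes at 24 h lie between -0.38 and 0.30.

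Levels of different genes were compared as CPM per kilobase of annotated exon. At 0 h the order was GNB2 (107 ± 22.9, SD, n = 3), GNG12 (105 ± 24.3), GNB1 (76.4 ± 7.95), GNG11 (32.2 ± 4.59), GNG2 (23.4 ± 1.79), GNB4 (21.9 ± 4.68), GNG5 (6.31 ± 1.66), GNG7 (5.45 ± 1.61), GNG4 (2.500 ± 0.393) and GNG10 (0.0779 ± 0.0484). Neighbours whose ranges overlapped were GNB2 and GNG12, GNG12 and GNB1, GNG2 and GNB4, and GNG5 and GNG7. GNG7 thus stood 8th of the 10 at 0 h and at 8 h, and 7th at 24 h with 18.0 ± 5.49 CPM per kb. The places of GNG5 and GNG10 in this order rest on uncertain counts. Dividing by the longest transcript instead placed GNG2 (40.0) above GNG11 (32.2), and GNB1 (156) above GNG12 (112).

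GNG7 made up 2.59%, 3.69% and 2.97% of the summed gamma level per kb at 0 h, 1.82%, 3.17% and 3.07% at 8 h, and 5.98%, 8.10% and 11.2% at 24 h. GNG12 held the largest share at every time, with means of 59.4%, 63.0% and 60.2%. The gamma sum takes in GNG5 and GNG10, whose counts are uncertain, and the shares and ratios built on it carry this limit. The summed gamma level was 151, 193 and 179 CPM per kb at 0 h and 209, 219.9 and 210.4 at 24 h. Without GNG7 it was 147, 186.1 and 174 at 0 h and 197, 202 and 186.8 at 24 h, so that the groups came close to touching. The summed beta level was 235, 193 and 187 CPM per kb at 0 h and 184, 167 and 166 at 24 h. The ratio of the beta to the gamma sum was 1.56, 0.998 and 1.04 at 0 h, 1.28, 1.03 and 1.05 at 8 h, and 0.880, 0.757 and 0.791 at 24 h. All 3 ratios of 24 h were below all earlier ones, and as GNG7 was chosen for its 24 h value this is a description. The size of the ratio, and so which sum is larger, depends on the length used. Per kb of longest transcript at 24 h, GNB1 stood at 124 CPM (60.9 per kb of exon) and GNB2 at 130 (85.2). On the same scale GNG12 stood at 138 (128) and GNG2 at 46.5 (27.2).

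**Figure D3:**
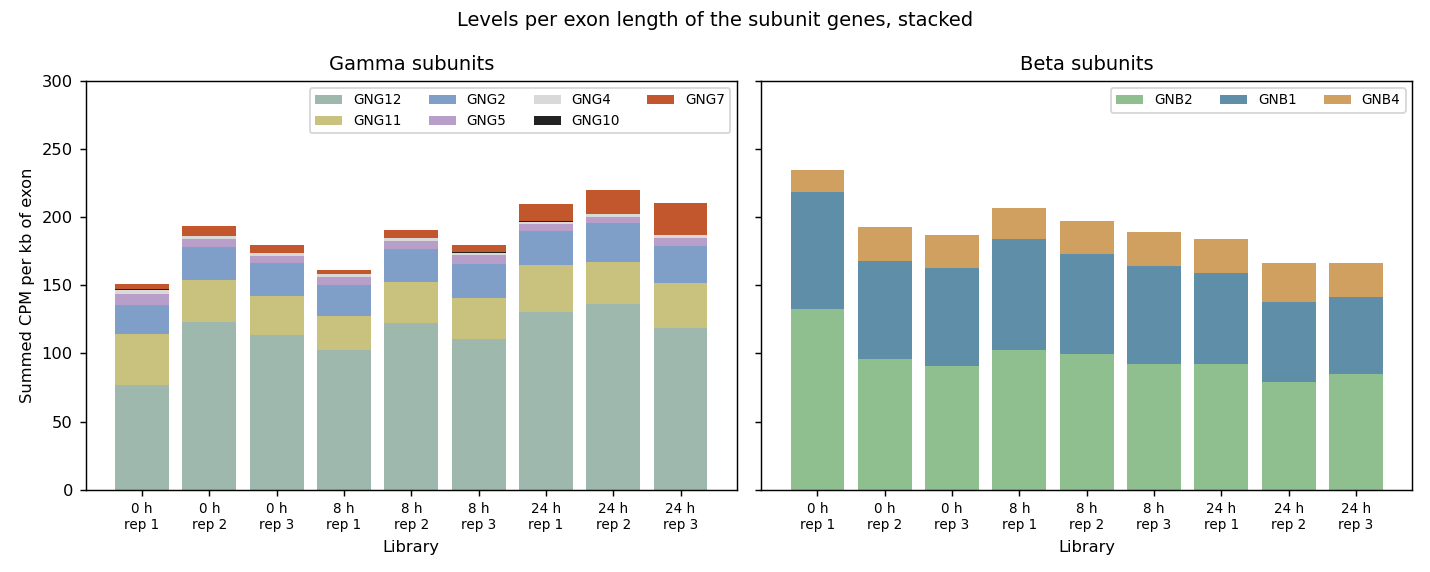
Stacked CPM per kilobase of exon of the 7 gamma genes (left) and the 3 beta genes (right) in each of the 9 libraries, on a shared axis from 0. The GNG7 block widens at 24 h (5.98% to 11.2% of the gamma sum) while GNG12 remains the largest gamma block in every library. The counts of GNG5 and GNG10 in the gamma sum are uncertain.

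The genes around the dimer were read from 5 lists, chosen like the members with earlier results of these data known. The other beta and gamma genes showed no called change at 24 h. Of 7 listed, 4 were in the table and 3 were tested, with a median log2 fold change of 0.03, against 0.01 for all genes. GNB5, the divergent beta subunit that pairs with RGS proteins of the R7 group, stood at 40.0 ± 2.04 CPM at 0 h and 40.3 ± 2.42 CPM at 24 h (log2 fold change 0.01, standard error 0.09, adjusted p = 0.943). GNB3, best known from cone photoreceptors, had a log2 fold change of 0.03 (adjusted p = 0.950), and GNGT1, the rod gamma subunit, 0.05 (adjusted p = 0.934) at 0.506 ± 0.176 CPM at 0 h.

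Of the 16 alpha subunit genes 14 were in the table and 10 were tested, and 1 passed at 24 h against 0 h, where 4.25% of all genes did: GNAO1, which encodes the alpha subunit abundant in brain. GNAO1 stood at 16.9, 22.3 and 21.9 CPM at 0 h, 22.9, 22.9 and 21.7 CPM at 8 h, and 33.6, 31.1 and 30.6 CPM at 24 h. It rose at 24 h, where every library was above the 6 others (log2 fold change 0.64, standard error 0.12, adjusted p = 0.0240). Without replicate 2 of 24 h its adjusted p was 0.117, without replicate 3 of 24 h it was 0.112, and with only the groups compared in the fit it was 0.0543, while the log2 fold change lay between 0.51 and 0.71 without any single library. The list's median was -0.00, with 5 higher and 5 lower. With the replicate block GNAQ (0.32, adjusted p = 0.0385) also passed as higher and GNA11 (-0.29, adjusted p = 0.0183) as lower; both are named after their values were seen, and that fit called 24.1% of all genes. GNAL, the partner of GNG7 in the striatum, was between 0.0437 and 0.211 CPM and was not tested.

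The effector list takes in whole families, such as the adenylyl cyclases, so a gene in it need not respond to the dimer. Of its 24 genes 19 were in the table and 15 were tested. Among these, 1 passed at 24 h against 0 h, beside 4.25% of all genes. KCNJ3 encodes GIRK1, a potassium channel subunit opened by direct binding of the beta-gamma dimer. KCNJ3 had 5, 13 and 9 counts at 0 h, 9, 10 and 12 at 8 h, and 28, 32 and 27 at 24 h, or 0.378 ± 0.134, 0.452 ± 0.0526 and 1.23 ± 0.136 CPM. It rose at 24 h from this low level (log2 fold change 1.66, standard error 0.30, adjusted p = 0.0236). All 3 libraries of 24 h were above the others. Without replicate 2 or replicate 3 of 24 h the adjusted p was 0.121 and 0.109, and with only the groups compared in the fit it was 0.0506. The list's median was 0.21, with 11 higher and 4 lower. With the replicate block ADCY9, an adenylyl cyclase named after its values were seen, also passed (0.41, adjusted p = 0.0195), beside 24.1% of all genes. Without replicate 1 of every group 3 of the list passed (KCNJ3, ADCY6 and PLCB4, the last 2 named after their values were seen), beside 16.9% of all genes. Adenylyl cyclase 5 (ADCY5) stood between 0.318 and 1.53 CPM.

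Folding and lipid attachment were covered by 19 genes, 18 of them in the table and tested, and none passed at 24 h against 0 h by edgeR, while DESeq2 called 2 (TCP1 and CCT4, both lower) and 10.9% of all genes. The list's median was -0.28, with 13 lower and 5 higher, and leaving out untreated replicate 1 moved this median to -0.12. An unadjusted p under 0.05 was found for 10 of the 18, against 26.4% of all genes. Of these 10 genes, 7 encode subunits of 1 complex, the CCT chaperonin. All 8 genes of the CCT chaperonin, the ring-shaped complex that folds beta subunits before they meet gamma, had negative fold changes, from -0.52 for TCP1 to -0.29 for CCT6A; their median was -0.42, and -0.25 without untreated replicate 1. With the replicate block all 8 passed as lower (adjusted p from 0.00353 to 0.0339), and without replicate 1 of every group 6 did; these fits called 24.1% and 16.9% of all genes. Outside the chaperonin, the block also called RIC8A, a chaperone of alpha subunits, as lower (-0.35, adjusted p = 0.00817) and PDCL, a cochaperone of the chaperonin in dimer assembly, as higher (0.30, adjusted p = 0.0418), both named after their values were seen. CCT4 stood at 528, 384 and 345 CPM at 0 h and 326, 289 and 274 CPM at 24 h (log2 fold change -0.50, standard error 0.16, adjusted p = 0.0842). TCP1 stood at 360, 247 and 225 CPM and 220, 188 and 173 CPM (-0.52, adjusted p = 0.0976), and CCT7 at 679, 485 and 458 CPM and 447, 374 and 367 CPM (-0.45, adjusted p = 0.115). Leaving out untreated replicate 1 gave -0.32 for CCT4, -0.30 for TCP1 and -0.27 for CCT7. In these 3 genes that library was the highest, and the 24 h libraries lay below all 3 untreated ones.

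RGS proteins, which speed GTP hydrolysis by alpha subunits, and GPSM modulators made up the last list. Of 19 genes 17 were in the table and 16 were tested; none passed at 24 h against 0 h by edgeR, 4 had an unadjusted p under 0.05 (26.4% of all genes had), and DESeq2 called 2 (RGS20 and GPSM2) and 10.9% of all genes. These shares of the list lie near those of all genes. The median was -0.18, with 12 lower and 4 higher, and -0.12 without untreated replicate 1. GPSM2, which binds inhibitory alpha subunits and orients the mitotic spindle, stood at 164, 158 and 166 CPM at 0 h, 166, 169 and 165 CPM at 8 h, and 139, 115 and 94.0 CPM at 24 h. The 24 h libraries were the lowest of the 9 (log2 fold change -0.49, standard error 0.13, adjusted p = 0.0521). With the replicate block GPSM2 passed (-0.50, adjusted p = 0.00787), in a fit that called 24.1% of all genes. Among the fits without a single library, GPSM2 passed only without replicate 1 of 24 h (-0.64, adjusted p = 0.0231). The share of all genes that passed in that fit is not given here. RGS20 stood at 18.4, 8.97 and 9.03 CPM at 0 h and 6.89, 5.87 and 5.55 CPM at 24 h (-0.99, adjusted p = 0.0823), with replicate 1 high at 0 h, and -0.58 without that library. RGS4, which acts on inhibitory and Gq-type alpha subunits, had a log2 fold change of -0.35 (adjusted p = 0.164). With the block RGS20 (-0.93, adjusted p = 0.00186) and RGS4 (-0.34, adjusted p = 0.0167) passed as lower, beside 11.6% of all genes.

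**Figure D4:**
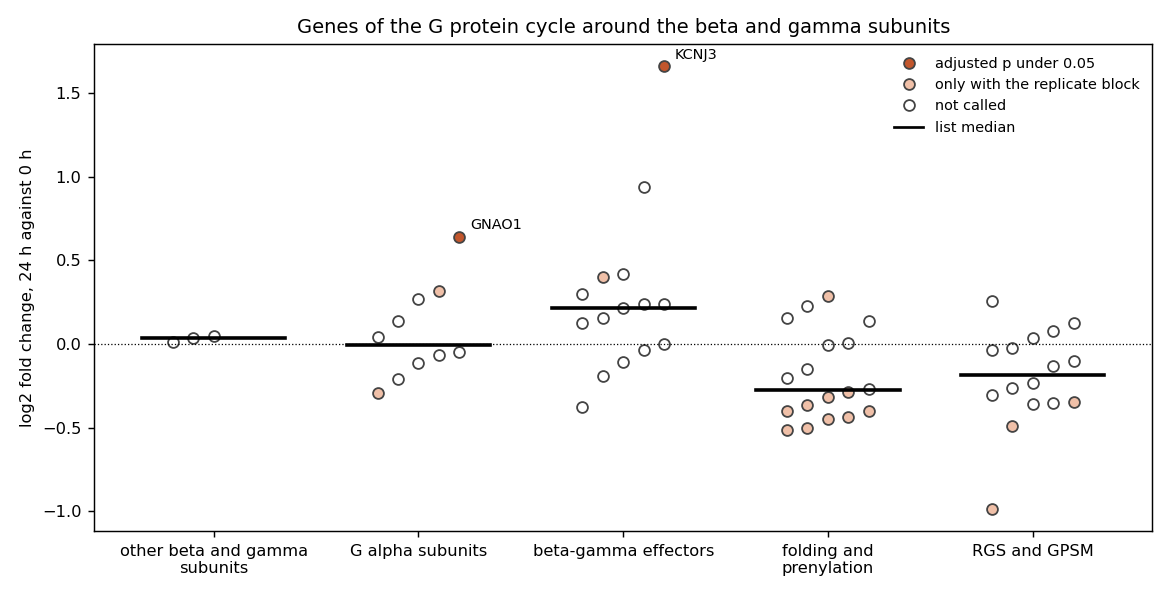
Log2 fold changes at 24 h against 0 h of the tested genes of the 5 lists; each point is a gene, filled where it passed, pale where it passed only with the replicate block, and bars are list medians. KCNJ3 (1.66) and GNAO1 (0.64) are the points that passed without the block, and of the folding genes 9 passed as lower and 1 (PDCL) as higher only with it.

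Genes whose level followed that of GNG7 most closely were found by Pearson's r of log2 CPM over the 9 libraries, among 10839 other genes of at least 5 CPM on average. The libraries share their 3 groups, and r over them follows the difference of 24 h from the rest, so these values are a description. The highest r were those of MARCKSL1 (0.996), CRYL1 (0.994), SSBP3 (0.993), IDH1 (0.993) and TUBA1A (0.993). MARCKSL1 went from 174, 266 and 213 CPM at 0 h to 434, 495 and 646 CPM at 24 h. Its order of replicates in both groups was that of GNG7, as it was for CRYL1, SSBP3, IDH1 and TUBA1A. These genes were picked by r over the same libraries, so a like order comes with the choice. The lowest r were those of GATA3 (-0.996), FOXC2 (-0.994) and IFFO2 (-0.993). Among the tested members, r with GNG7 ran from -0.955 for GNB1 to 0.877 for GNG2.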

How the data were processed

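RNA-seq of 9 libraries was analysed from 1 deposited table of raw counts per Ensembl gene (23727 genes). Stranded mRNA libraries were made from RNA with an integrity number above 9, per the labels' protocols. The submitters' processing notes name bcl2fastq 2.20.0.422, STAR 2.7.4a and GRCh38; how the deposited counts were made from the alignments, and their strand setting, are not given in the sources used here.

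Symbols were found for 99.5% of genes, and GENCODE 29 models for 98.0%. Genes were filtered with filterByExpr, scaled with TMM and fitted with edgeR 4.0.16 (R 4.3.3), with 1 mean per group over all 9 libraries. Tests were quasi-likelihood F tests, two-sided, adjusted over all 15273 tested genes by Benjamini-Hochberg, with a threshold of 0.05. The script was tested on simulated counts. These held the same spread for all genes and no shift between replicate numbers, so that test does not cover such features of these data. DESeq2 1.42.0, other scaling, no filter, pairs of groups, a replicate block and left-out libraries were alternatives. Log2 CPM used a prior count of 2.

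Same-numbered libraries deviated together between 24 h and 0 h (r = 0.367, 0.164 and 0.251 for numbers 1, 2 and 3) and between 8 h and 0 h (0.476, 0.432 and 0.414), all above 0.1. However, replicate 2 of 24 h had a higher r with untreated replicate 3 (0.27) than with untreated replicate 2. The titles give the numbers. The spread between libraries, which edgeR terms the biological coefficient of variation (BCV) and which may be technical here, was 0.137, and 0.0956 with the block. No libraries were duplicates: chi-square per degree of freedom within groups was at least 8.66.

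All members were named. From each list the genes that passed at 24 h against 0 h were named, or the 3 with the smallest p where none did; so were the 5 genes most like GNG7 and the 3 least. The members and lists were chosen with earlier results of these data known. No protein sequence was used here.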

Additional observations from a re-analysis of the deposited data

Results flagged for a closer look

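The effects at 8 h and at 24 h against the shared untreated libraries differed for 3 genes of the lists, tested as 24 h against 8 h with edgeR's quasi-likelihood fit and Benjamini-Hochberg over all genes. GNAO1 was higher by 0.50 on the log2 scale at 24 h (adjusted p = 0.0390), KCNJ3 by 1.43 (adjusted p = 0.0287), and GPSM2 had a log2 fold change of -0.52 (adjusted p = 0.0425). These are 3 of 62 tested genes of the lists (4.84%), a share near the 4.56% of all genes that passed in this comparison. In all 3 genes the libraries of 24 h stood apart from those of 8 h, as they did for 34.3% of all genes. The 3 genes were named for passing this same comparison, so their standing apart adds nothing to it. GNAO1 did not pass in 7 of the 9 fits without a single library, GPSM2 in 7 and KCNJ3 in 5, while the direction held in every fit, with log2 fold changes between 0.46 and 0.51 for GNAO1, 1.32 and 1.52 for KCNJ3, and -0.68 and -0.41 for GPSM2.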

How the results depend on the processing

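The counts of members that passed include GNG7, whose call at 24 h follows from its choice and supports nothing. At 24 h against 0 h, 1 member was below the threshold (GNG7); with the replicate block 4 did, without replicate 1 of every group (added after seeing the data) 2, and without single libraries 0 to 1, with 0 without replicate 2 or replicate 3 of 24 h. The share of all genes that passed was 4.25%, 24.1% with the block and 16.9% without replicate 1 of every group. Of the 8 other members 0, 3 (GNB1, GNB2 and GNG4) and 1 (GNB1) passed in these fits, and 0 in each fit without a single library. At 24 h against 8 h the count was 1 (GNG7); with the replicate block 2 did, without replicate 1 of every group 2, and without single libraries 0 to 2: 0 without replicate 1 or 3 of 8 h or replicate 2 or 3 of 24 h, and 2 without untreated replicate 1. Each count of 2 adds GNB1, and the share of all genes was 4.56%, 20.5% with the block and 19.9% without replicate 1 of every group. That share is not given for the fits without a single library. The numbers did not pair 24 h with 8 h throughout (r = 0.423, 0.0367 and 0.404). At 8 h against 0 h, 0 passed under every alternative. Values near 0 changed sign. Without replicate 1 of every group the log2 fold changes at 8 h were 0.20 (GNG5), 0.032 (GNG11), -0.024 (GNG12), 0.018 (GNB1) and 0.036 (GNB2), and at 24 h against 0 h -0.024 (GNGT1) and -0.012 (GNB5, and -0.00013 by DESeq2). Without single libraries, they lay at 8 h between -0.026 and 0.082 for GNG2, -0.21 and 0.13 for GNG5, -0.37 and 0.088 for GNG7, -0.087 and 0.23 for GNG12, -0.061 and 0.073 for GNB1, -0.21 and 0.065 for GNB2, and -0.039 and 0.23 for GNB4. At 24 h against 0 h they lay between -0.059 and 0.12 for GNG11, -0.13 and 0.36 for GNGT1, -0.032 and 0.051 for GNB5, and -0.17 and 0.31 for GNB3. The cause of these changes was not tested. Depth limits GNG10 (1 to 6 counts per library) and KCNJ3.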
